A study of Mus musculus with 12 samples.

Results

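Small nucleolar RNA (snoRNA) host genes are genes whose introns, or in some cases retained exons, hold snoRNAs. The 9 examined here are the mouse long non-coding host genes Gas5, Snhg1, Snhg3, Snhg5, Snhg6, Snhg8, Snhg12, Snhg15 and Zfas1, taken by symbol from a count table of 55376 genes. All 9 were measured, and all 9 were among the 12224 genes tested. RNA was sequenced from 4T1 cells, a mouse mammary carcinoma line, after lysates had been spread by size on sucrose gradients. Mock cells (libraries A, B and C) were compared with cells stably transfected with full-length Mettl7a1 cDNA (libraries D, E and F), and transfected cells were kept under G418 selection. The cDNA was in the pBICEP-CMV-2 vector. Per the study, mock cells carried the empty vector. Whether either line was 1 clone or a pool is not given in the sources used here. Cells of both kinds were treated with cycloheximide at 0.1 mg/ml for 5 min, which holds ribosomes on their mRNAs. Gradient fractions 3 to 7 were pooled as sub-polysomal RNA and fractions 8 to 11 as polysomal RNA, which gave 4 groups of 3 libraries. Per the study's methods, free ribosomal subunits and monosomes (single ribosomes) were kept apart from light and heavy polysomes. On that scheme an RNA bound by 1 ribosome belongs to the sub-polysomal pool. The study describes its polysome profiles as standing for at least 3 independent fractionations of biological triplicates, but does not tie this to the sequenced libraries. Nothing in the labels says whether the libraries of a group came from separate cultures, so p-values measure only the spread between these libraries.

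Host genes are transcribed to release snoRNAs, which guide the modification and processing of ribosomal RNA. The spliced exons that remain hold short reading frames only. Many such spliced RNAs reach the cytoplasm, are bound by ribosomes and are then destroyed by nonsense-mediated decay, a pathway that removes RNAs whose translation ends early, and several start with a terminal oligopyrimidine (TOP) tract, a C followed by pyrimidines, as ribosomal protein mRNAs do. Gas5 was found as a transcript that accumulates in growth-arrested cells, Zfas1 is transcribed from the opposite strand beside Znfx1, and METTL7A1 is a member of a family of putative methyltransferases.

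Sequence from the start of transcription was read to show which host genes begin with such a tract. RefSeq starts (GRCm38.p6) were found for 8 of the 9 genes, with 2 starts for Gas5. Each window below covers 10 bases before the start and 20 from it, 5′ to 3′ on the strand of the gene, and capitals mark a stretch in which C is followed by at least 4 pyrimidines.
Gas5 first start, chr1:161034591-161034620 (+): gcgggcccgcgagctcgacagcccggagcc
Gas5 second start, chr1:161035156-161035185 (+): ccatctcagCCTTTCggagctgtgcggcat
Snhg1, chr19:8723477-8723506 (+): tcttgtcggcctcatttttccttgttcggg
Snhg3, chr4:132353667-132353696 (-): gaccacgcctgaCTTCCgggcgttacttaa
Snhg5, chr9:88522878-88522907 (-): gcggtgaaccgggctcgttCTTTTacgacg
Snhg8, chr3:123508317-123508346 (-): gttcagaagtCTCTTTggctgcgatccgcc
Snhg12, chr4:132308668-132308697 (+): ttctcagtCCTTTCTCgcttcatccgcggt
Snhg15, chr11:6528741-6528770 (-): ctgtgaccgtaactttaagcacacgtgagc
Zfas1, chr2:167062924-167062953 (+): tgcgccccgggcggccgcaggtctcggctg
Capitals fell in the windows of 5 genes, Gas5, Snhg3, Snhg5, Snhg8 and Snhg12, and such a stretch was present in the windows of 35.8% of the 32851 RefSeq promoters. The start base itself was C followed by 4 pyrimidines for Snhg8 and the second start of Gas5, which held for 2.51% of all promoters. These letters describe an annotated position, and the start used in 4T1 cells was not measured.

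The coding capacity of the spliced transcripts was small. In the GENCODE M21 transcript taken for each gene, the longest frame from ATG to a stop had 35 codons in Snhg8 and 79 in Zfas1, with a median of 43, in transcripts of 473 to 1004 bases. The frames of Snhg6, Gas5 and Snhg5 are given here because Snhg6 had the lowest and Snhg5 the highest polysomal change described below, and Gas5, sixth in that order, held the most snoRNA genes. The start and stop codons are in capitals.
Snhg6 frame: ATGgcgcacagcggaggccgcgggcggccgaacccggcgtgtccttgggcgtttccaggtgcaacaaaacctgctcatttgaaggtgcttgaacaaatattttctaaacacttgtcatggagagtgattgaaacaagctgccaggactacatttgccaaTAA
Gas5 frame: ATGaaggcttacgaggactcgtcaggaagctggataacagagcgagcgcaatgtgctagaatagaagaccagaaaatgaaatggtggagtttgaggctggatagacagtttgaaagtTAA
Snhg5 frame: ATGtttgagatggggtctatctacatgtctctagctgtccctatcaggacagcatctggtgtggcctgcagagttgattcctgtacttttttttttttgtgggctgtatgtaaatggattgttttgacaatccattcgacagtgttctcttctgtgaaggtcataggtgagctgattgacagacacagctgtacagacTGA
The frame of Snhg6 began at base 42 of a transcript of 473 bases, that of Gas5 at base 103 of 502, and that of Snhg5 at base 694 of 1004. Whether any of these frames is translated was not measured.

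The genes lay on 7 chromosomes of GRCm38 and held 31 annotated snoRNA genes by name. Gas5 (1:161034607-161038539, plus strand) held 9 of them and Snhg1 (19:8723475-8726443, plus) held 8. Snhg12 (4:132308677-132311024, plus) held 4 and Zfas1 (2:167062934-167065862, plus) held 3. Both Snhg3 (4:132348014-132353663, minus) and Snhg5 (9:88521050-88522929, minus) held 2. Snhg6 (1:9941959-9944118, minus), Snhg8 (3:123507552-123508404, minus) and Snhg15 (11:6525591-6528760, minus) held 1 each. Exons of Gas5, Snhg5 and Snhg8 overlapped no other gene of the table. Of the 727 exon bases of Snhg3, 660 were shared, 107 with Rcc1 on the same strand and 553 with Gm17300 on the opposite strand, and Gm17300 had 0 to 11 counts per library. The other shared stretches were 333 of 1418 bases in Snhg12, 324 of 859 in Zfas1, 133 of 999 in Snhg15, 127 of 979 in Snhg6 and 119 of 865 in Snhg1. In Snhg12, Snhg15 and Snhg1 these bases were shared only with snoRNA genes inside them on the same strand. Zfas1 shared 189 bases with Gm27494 and 53 with Snord12 on the same strand, and 82 with Znfx1 on the opposite strand. Snhg6 shared its 127 with Mcmdc2 on the opposite strand. Whether strand was used in counting is not given in the sources used here, so reads from opposite strands cannot be told apart. A strand setting would not separate reads on bases shared on the same strand.

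Libraries held 1817520 to 6966156 counts, and no 2 libraries were identical. Mettl7a1 was at 1.26 to 3.27 CPM (counts relative to the library's total, scaled by the trimmed mean of M values, TMM) in the 6 mock libraries and at 236 to 395 CPM in the 6 METTL7A1 libraries. Among cell type markers, the 6 mammary epithelial genes summed to 2669 to 6102 CPM. The 5 fibroblast genes summed to 0.986 to 6.00 CPM and the 5 leukocyte genes to 4.64 to 22.4 CPM, with 2 of each list at 0 in every library (Pdgfrb and Thy1, Lyz2 and Cd3e). Polysomal library A of mock cells stood apart. The 9 host transcripts summed to 397 CPM there against 892 and 930 CPM in B and C, and each of the 9 was below the mean of B and C, at log2 differences of -1.48 to -1.05, while the median over all tested genes was -0.02. In the same library, mitochondrially encoded genes took 0.684% of counts against 2.14% and 1.43% in B and C. In sub-polysomal library A of mock cells, which had the fewest counts, the sum was 3619 CPM against 5090 and 5064 CPM. Each of the 9 was again below the mean of B and C, at log2 differences of -0.88 to -0.11. Snhg5 was nonetheless level with B (385 and 383.5 CPM) and Snhg8 with C (347 and 345 CPM). The reason was not tested, and the comparisons below are given with and without these libraries.

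Per kilobase of exon, Snhg1 was the most abundant in sub-polysomal RNA of mock cells at 1321 ± 251.4 CPM per kb (SD, n = 3), followed by Gas5 at 1164 ± 301 and Zfas1 at 855 ± 142. Neighbours among these 3 did not differ beyond their spread. Snhg8, whose libraries all lay below those of Zfas1, was at 606.5 ± 58.9, Snhg5 at 405 ± 64.9, Snhg15 at 283 ± 87.9 and Snhg12 at 260.1 ± 63.2 CPM per kb. The lowest were Snhg6 at 200.3 ± 36.3 and Snhg3 at 118 ± 16.1 CPM per kb, whose libraries did not overlap. In polysomal RNA of the same cells the order changed at the top, with Snhg1 at 230.3 ± 85.9, Snhg5 at 168 ± 66.8 and Gas5 at 154 ± 61.8 CPM per kb, 3 levels within their spread. Polysomal Snhg6 was lowest at 16.7 ± 8.31 CPM per kb. The length used was all merged exon bases, of which 660 of 727 were shared with other genes in Snhg3 and 324 of 859 in Zfas1. For Snhg12 it was 1418 bases, against 606 in its GENCODE transcript. How reads on shared bases were counted is not given, so the order of the genes by level is uncertain, the place of Snhg3 above all.

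**Figure D1:**
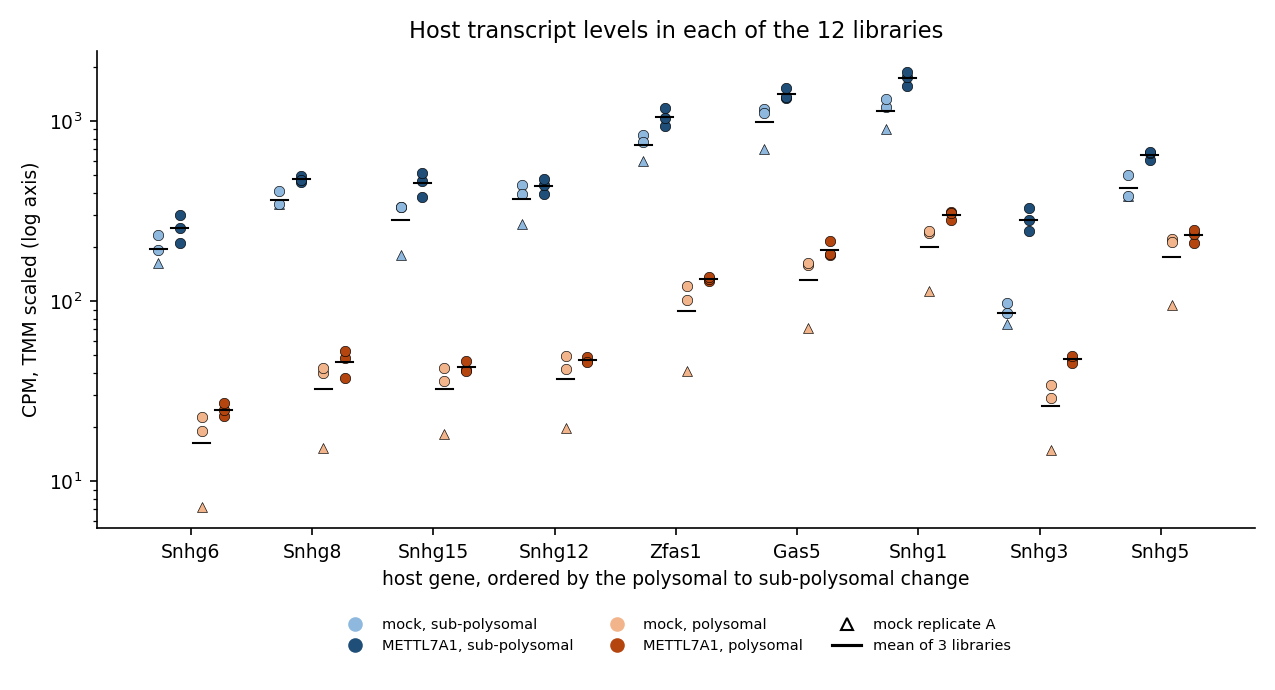
Level of each host transcript in each of the 12 libraries, in TMM-scaled CPM on a log axis; points are libraries, triangles are mock replicate A and bars are means of 3 libraries. For each of the 9 genes the 6 polysomal libraries lie below the 6 sub-polysomal ones, and the triangle of polysomal mock RNA lies below the other libraries of its group.

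The first comparison asked how the host transcripts were spread between the pools. All 9 were lower in polysomal than in sub-polysomal RNA in mock cells and in METTL7A1 cells, and in each genotype the libraries of the pools did not overlap for any of the 9. The fall was smallest for Snhg5, 2.41-fold in mock and 2.80-fold in METTL7A1 cells, and largest for Snhg6 in mock cells, 12.0-fold, and for Snhg15 in METTL7A1 cells, 10.5-fold. At an adjusted p below 0.01 in edgeR's quasi-likelihood test (Benjamini-Hochberg adjusted over all genes tested), 9 of 9 fell in mock cells, where 17.9% of all genes did, and 9 of 9 fell in METTL7A1 cells, against 23.7%. With the further limit of a log2 change below -1.5, here termed called, 8 of 9 were called in each genotype, beside 6.86% of all genes in mock and 10.3% in METTL7A1 cells. Pools that did not overlap, with the polysomal one lower, were seen for 24.7% of all genes in mock and 32.3% in METTL7A1 cells. The median log2 change of the 9 was -3.06 in mock and -2.99 in METTL7A1 cells, and over all genes 0.05 and 0.06. Ranked from the lowest of the 12224 changes, the 9 took places from 86 (Snhg6) to 1405 (Snhg5) in mock and from 179 (Snhg15) to 1513 (Snhg5) in METTL7A1 cells. Values are relative to each library's total, so the share of a transcript that sat on polysomes was not measured. Within the sub-polysomal pool, RNA on a single ribosome was not separated from RNA free of ribosomes.

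Snhg6, host of Snord87, fell most when the genotypes were averaged. In mock cells it was at 163, 234 and 192 CPM in sub-polysomal libraries A, B and C and at 7.23, 19.1 and 22.8 CPM in the polysomal ones. In METTL7A1 cells its sub-polysomal level was 209.6, 254 and 302 CPM in D, E and F, and its polysomal level 23.0, 24.9 and 27.3 CPM. Every sub-polysomal value was thus far above every polysomal one, and the lowest value was that of mock polysomal library A. The log2 change was -3.58 (SE 0.27, adjusted p = 7.75e-08) in mock and -3.35 (SE 0.27, adjusted p = 4.1e-08) in METTL7A1 cells.

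Snhg8, host of Snora24, had 347, 407 and 345 CPM in mock sub-polysomal RNA and 15.3, 39.8 and 42.8 CPM in mock polysomal RNA. METTL7A1 cells had 461, 498.5 and 469 CPM in the sub-polysomal and 37.4, 48.4 and 52.7 CPM in the polysomal pool. Both genotypes showed a wide gap between pools, with log2 changes of -3.49 (SE 0.26, adjusted p = 7.75e-08) in mock and -3.37 (SE 0.26, adjusted p = 3.19e-08) in METTL7A1 cells. Of the 9 genes it is the shortest by merged exons, at 604 bases.

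Snhg15, host of Snora9, was at 181, 332 and 334 CPM in mock sub-polysomal RNA and at 18.3, 36.1 and 42.9 CPM in mock polysomal RNA. In METTL7A1 cells the values were 379.9, 464 and 516 CPM and 41.6, 41.0 and 46.8 CPM. Library A of mock cells was the lowest in both pools. The log2 change was -3.13 (SE 0.26, adjusted p = 1.77e-07) in mock and -3.39 (SE 0.26, adjusted p = 3.36e-08) in METTL7A1 cells.

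Snhg12, host of Snora16a, Snora44, Snora61 and Snord99, was at 269, 444 and 394 CPM in sub-polysomal and 19.8, 42.0 and 49.7 CPM in polysomal RNA of mock cells. Its METTL7A1 values were 393, 441.5 and 477 CPM and 46.4, 49.3 and 46.3 CPM. The polysomal values of METTL7A1 cells were nearly equal to one another and fell within the upper range of the mock ones. Log2 changes were -3.31 (SE 0.25, adjusted p = 7.75e-08) and -3.21 (SE 0.25, adjusted p = 3.61e-08).

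Zfas1, host of Snord12 and other box C/D snoRNAs, was at 601, 839 and 764.5 CPM in mock sub-polysomal and 41.2, 101 and 121 CPM in mock polysomal RNA. METTL7A1 cells had 935, 1047 and 1189 CPM and 129, 132 and 137 CPM, higher than every mock library of the same pool. Znfx1, which shares 82 exon bases with Zfas1 on the opposite strand, had 11 to 101 counts against 302 to 4980 for Zfas1. The log2 change between pools was -3.06 (SE 0.27, adjusted p = 3.32e-07) in mock and -2.99 (SE 0.27, adjusted p = 9.14e-08) in METTL7A1 cells.

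Gas5 was at 697, 1165 and 1111 CPM in mock sub-polysomal and 70.8, 159.7 and 164 CPM in mock polysomal RNA. In METTL7A1 cells it was at 1344, 1360 and 1527 CPM and at 182, 182 and 217 CPM. Its lowest sub-polysomal library was still more than 3 times as high as its highest polysomal one. Log2 changes were -2.91 (SE 0.26, adjusted p = 3.46e-07) and -2.87 (SE 0.26, adjusted p = 9.52e-08).

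Snhg1, with 8 snoRNA genes by name, was at 902, 1201 and 1325 CPM in mock sub-polysomal and at 113.5, 239 and 245 CPM in mock polysomal RNA. METTL7A1 libraries held 1559, 1756 and 1863 CPM and 284, 313.5 and 309 CPM. Per kilobase of merged exon, shared bases included, it was the most abundant of the 9 in each of the 12 libraries. The log2 change was -2.52 (SE 0.24, adjusted p = 4.39e-07) in mock and -2.51 (SE 0.24, adjusted p = 1.29e-07) in METTL7A1 cells.

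Snhg3, host of Snora73a and Snora73b, which act in ribosomal RNA processing, differed more between the genotypes. In mock cells it was at 74.4, 85.8 and 97.8 CPM in sub-polysomal and 15.0, 34.3 and 29.0 CPM in polysomal RNA. In METTL7A1 cells it was at 244, 281 and 327 CPM and at 47.6, 45.3 and 49.6 CPM. The log2 change between pools was -1.73 (SE 0.22, adjusted p = 5.81e-06) in mock and -2.58 (SE 0.21, adjusted p = 4.5e-08) in METTL7A1 cells, and the test of that difference is given below.

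Snhg5, host of Snord50a and Snord50b, fell least and was the 1 gene not called. It was at 385, 383.5 and 502 CPM in mock sub-polysomal and 95.6, 220.3 and 212 CPM in mock polysomal RNA. In METTL7A1 cells it was at 608, 664 and 677 CPM and at 211, 236 and 249.8 CPM. The pools did not overlap, and the log2 change was -1.27 (SE 0.23, adjusted p = 0.000182) in mock and -1.48 (SE 0.23, adjusted p = 2.11e-05) in METTL7A1 cells, just short of the limit of -1.5. Its transcript was the longest of the 9.

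**Figure D2:**
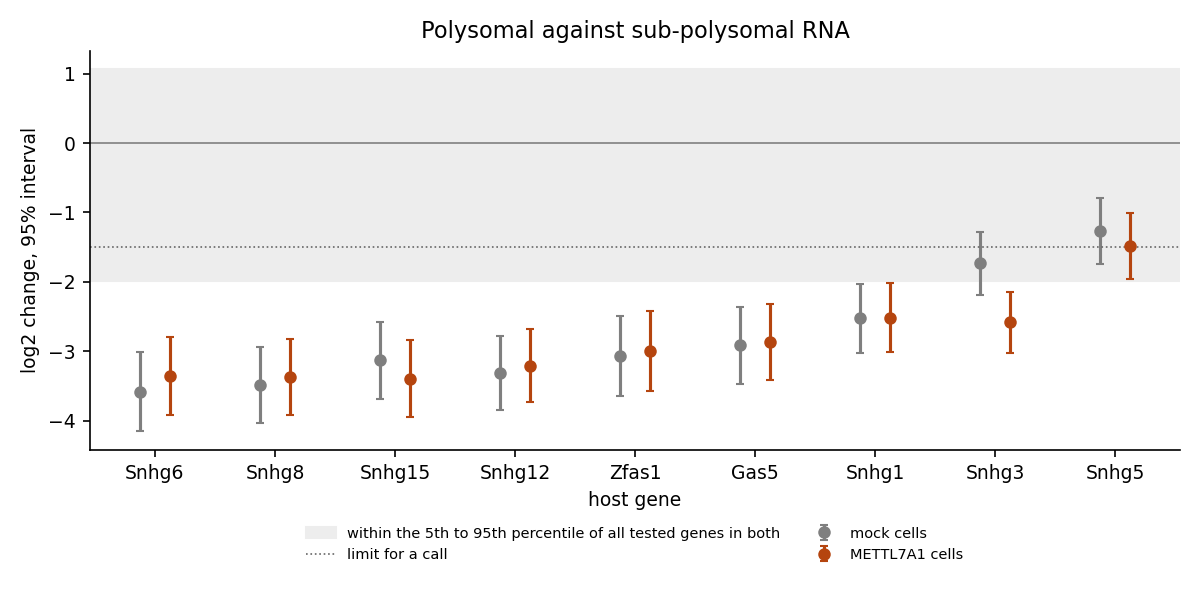
Log2 change of each host transcript between polysomal and sub-polysomal RNA with its 95% interval, in mock cells (grey) and METTL7A1 cells (orange); the grey band is the part of the 5th to 95th percentile range of all tested genes that both genotypes share and the dotted line is the log2 limit of -1.5. All 18 points lie below 0, and those of Snhg5 lie at -1.27 and -1.48.

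Ordered by the change averaged over the genotypes, Snhg6 (11.1-fold lower) was followed by Snhg8 (10.8-fold), Snhg15 (9.59-fold), Snhg12 (9.58-fold), Zfas1 (8.16-fold), Gas5 (7.41-fold), Snhg1 (5.73-fold), Snhg3 (4.46-fold) and Snhg5 (2.60-fold). The 95% intervals of neighbours in this order overlapped in both genotypes except between Snhg3 and Snhg5 in METTL7A1 cells, where the changes differed by 1.10 on the log2 scale. Over the 9 genes, Spearman's rho between the averaged log2 change and transcript length was 0.57, and 0.38 without Snhg5. With merged exon length, the other measure of length, rho was 0.02, and -0.29 without Snhg5. For the length of the longest frame it was 0.28 (0.07 without Snhg5), for GC content -0.13 (-0.10), for the number of exons 0.40 (0.36) and for the number of snoRNA genes inside 0.54 (0.68). These are descriptions of 9 genes measured in the same libraries.

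Without polysomal library A of mock cells, all 9 still fell in mock cells, beside 13.9% of all genes in the same fit, and the median log2 change was -2.72. Of the 9, 7 were called, beside 4.46% of all genes, since Snhg3 was then at -1.46 and Snhg5 at -0.97. Without both libraries of mock A all 9 fell (15.4% of all genes), the median was -2.89 and 8 were called (5.18% of all genes), Snhg3 being at -1.58. The pools did not overlap for any of the 9 in either case. When TMM was applied within each pool the median of all genes moved to 0.48 in mock and 0.49 in METTL7A1 cells, and the 9 had medians of -2.65 and -2.56 with 7 and 8 called.

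Other host genes were then set beside the 9. Of 12 other long non-coding hosts, 10 were listed and 8 tested. In mock cells all 8 fell and 7 were called (median log2 change -2.71), and in METTL7A1 cells 7 fell, all 7 called (median -2.91). Snhg9 was lowest but with wide error, at -5.03 (SE 0.83) and -5.70 (SE 0.55). Snhg17 was highest of those that fell in both genotypes, at -1.11 (SE 0.19) and -1.65 (SE 0.19). Among 18 ribosomal protein genes that host snoRNAs, 13 fell in each genotype, with medians of -0.90 and -0.93. Of these, Rps2 fell most, with log2 changes of -2.70 and -3.32, while Rpl5 rose in METTL7A1 cells (0.95, adjusted p = 2.76e-05) and had 0.20 in mock cells (adjusted p = 0.286). The 17 other protein-coding hosts had medians of -0.03 and 0.41. In mock cells 3 of these rose and 4 fell, and in METTL7A1 cells 9 rose and 3 fell. Over all genes 15.7% rose and 17.9% fell in mock cells, and 23.0% rose and 23.7% fell in METTL7A1 cells. Taf1d fell, at -1.71 and -1.32, and Cct6a, a chaperonin subunit, rose, at 0.93 and 1.59.

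Long non-coding RNAs in general also lay low. Over 536 other tested genes of long non-coding types in GENCODE M21, the median log2 change was -1.49 in mock and -1.83 in METTL7A1 cells, and 40.3% and 50.4% fell. Over 10837 protein-coding genes the medians were 0.12 and 0.14, and 16.0% and 21.5% fell. Among nuclear long non-coding RNAs, of which 4 of 8 were tested, Neat1 fell, at -1.95 and -1.90, while Tug1 had 0.58 (adjusted p = 0.041) and 0.36 (adjusted p = 0.171). The list had 1 gene that fell in mock and 2 in METTL7A1 cells.

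Genes for the proteins that act on host RNAs and snoRNAs were examined as well. Of 14 nonsense-mediated decay factors, 1 rose in mock and 3 in METTL7A1 cells and none fell past an adjusted p of 0.01 in edgeR's test, with medians of 0.17 and 0.22. Beside these counts, 15.7% of all genes rose in mock and 23.0% in METTL7A1 cells. Smg1, a kinase of the pathway, rose in METTL7A1 cells (1.26, adjusted p = 0.000451) and had 0.56 in mock cells (adjusted p = 0.0617). Casc3, of the exon junction complex, had -0.18 (adjusted p = 0.271) and -0.37 (adjusted p = 0.018). Of 12 genes for snoRNA-bound proteins and their assembly, 1 rose and 3 fell in mock cells, and 5 rose and 3 fell in METTL7A1 cells. Nop10, of the box H/ACA particle, fell, with log2 changes of -1.36 and -1.82, and Ruvbl1, an assembly factor, rose, at 0.92 and 1.22.

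**Figure D3:**
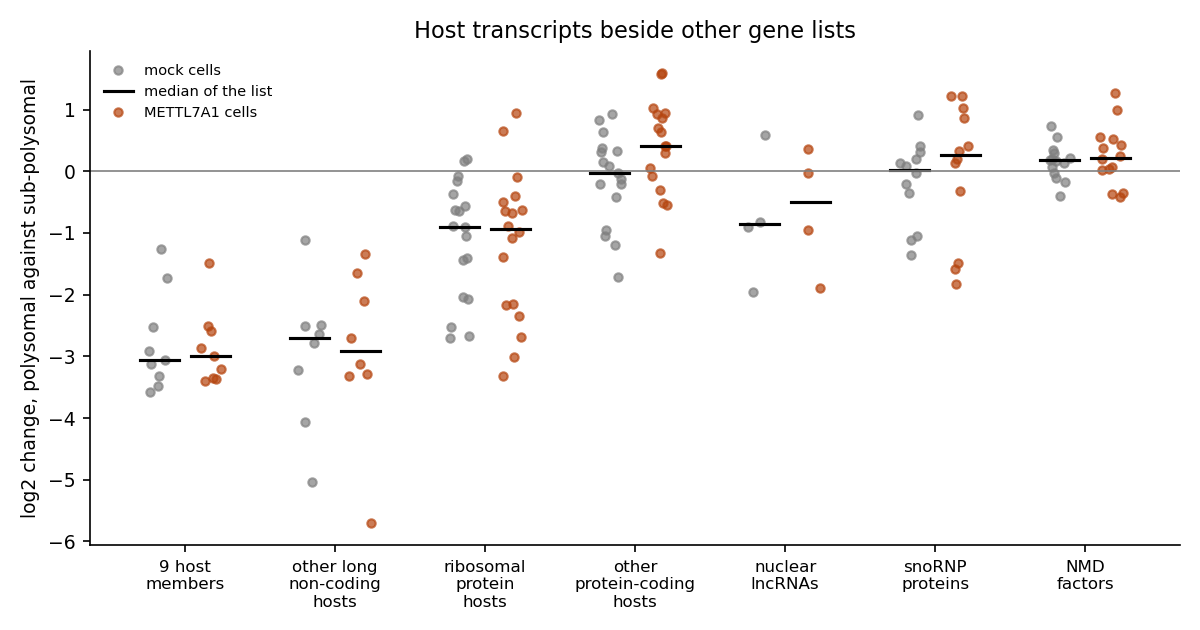
Log2 change between polysomal and sub-polysomal RNA for each tested gene of 7 gene lists, in mock cells (grey) and METTL7A1 cells (orange), with black bars at each list's median. The 9 host transcripts have medians of -3.06 and -2.99, the other long non-coding hosts -2.71 and -2.91, and the other protein-coding hosts -0.03 and 0.41.

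The next comparison was between genotypes within each pool. In sub-polysomal RNA all 9 log2 changes between METTL7A1 and mock cells were above 0 (median 0.52, against 0.00 over all genes), but 1 of 9, Snhg3, passed an adjusted p of 0.01, where 10.5% of all genes rose. It was also called, beside 1.5% of all genes. At an adjusted p below 0.05, Snhg3, Snhg5 and Snhg15 passed, 3 of 9 against 16.9% of all genes. Libraries of the genotypes did not overlap for 7 of the 9, with METTL7A1 higher, against 23.5% of all genes. Since the 9 were read from the same libraries, they are not independent measurements of the genotypes.

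Snhg3 rose 3.28-fold in sub-polysomal RNA (log2 1.71, SE 0.21, adjusted p = 1.16e-05), from 74.4 to 97.8 CPM in mock to 244 to 327 CPM in METTL7A1 cells. The call was kept when each library was left out in turn, with log2 changes of 1.60 to 1.82, and without both libraries of mock A (1.61, adjusted p = 5.63e-06). Rcc1, which shares 107 exon bases with Snhg3 on the same strand, had 99.2, 109 and 97.8 CPM in mock and 115, 125 and 119 CPM in METTL7A1 sub-polysomal RNA. Snhg5 had 0.62 (SE 0.22, adjusted p = 0.0426), Snhg15 0.67 (SE 0.24, adjusted p = 0.0392) and Snhg1 0.59 (SE 0.22, adjusted p = 0.0507). The other 5 lay between 0.24 for Snhg12 (adjusted p = 0.449) and 0.52 for Zfas1 (adjusted p = 0.123). The calls at 0.05 other than that of Snhg3 were lost when single libraries were left out. Without sub-polysomal library A of mock cells the median was 0.38 and 1 of 9, Snhg3 (1.61, adjusted p = 0.000272), passed at either 0.01 or 0.05, beside 7.53% and 13.1% of all genes in the same fit. Snhg5 was then at 0.53 (adjusted p = 0.136), Snhg15 at 0.43 (adjusted p = 0.196), Gas5 at 0.29 (adjusted p = 0.422) and Snhg12 at 0.04 (adjusted p = 0.914). When each of the 12 libraries was left out in turn, the adjusted p ran from 0.00178 to 0.136 for Snhg5 and from 0.00794 to 0.196 for Snhg15. The count of genes whose libraries did not overlap was 7 of 9 without that library too, beside 27.3% of all genes. Without polysomal library A of mock cells, which enters this comparison through the shared estimate of spread, 5 passed the adjusted p of 0.01 at nearly the same log2 changes, beside 12.1% of all genes. They were Snhg3, Snhg5 (adjusted p = 0.00178), Snhg1 (0.00486), Snhg15 (0.00794) and Zfas1 (0.00954), all by edgeR's test. Without both libraries of mock A, Snhg3 and Snhg5 (0.53, adjusted p = 0.00874) passed 0.01, beside 9.42% of all genes, and 5 of 9 passed 0.05, beside 15.6%.

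In polysomal RNA all 9 changes were again above 0 (median 0.56, against -0.01 over all genes). Snhg3 passed an adjusted p of 0.01 (log2 0.86, SE 0.21, adjusted p = 0.00825), 1 of 9 against 5.03% of all genes that rose, and 0 of 9 were called, against 0.982% of all genes. At an adjusted p below 0.05 the count was still 1 of 9, against 9.69%. For 5 of the 9, every METTL7A1 library was above every mock library, against 18.9% of all genes. The other 8 lay between 0.35 for Snhg12 (adjusted p = 0.357) and 0.60 for Snhg6 (adjusted p = 0.131), with an interval for Snhg6 from 0.04 to 1.17. These values depended on mock library A. Without it the median was 0.25, 0 of 9 passed 0.01, beside 4.54% of all genes, and 1 of 9 passed 0.05, beside 9.02%. The count without overlap was again 5 of 9, beside 24.1% of all genes. Snhg3 was at 0.59 (adjusted p = 0.0163) and the other 8 were between 0.04 for Snhg12 and 0.32 for Snhg1. The count was also 0 when any of 7 other libraries was left out alone: sub-polysomal A or B or polysomal C of mock cells, sub-polysomal E of METTL7A1 cells, or polysomal D, E or F of METTL7A1 cells.

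**Figure D4:**
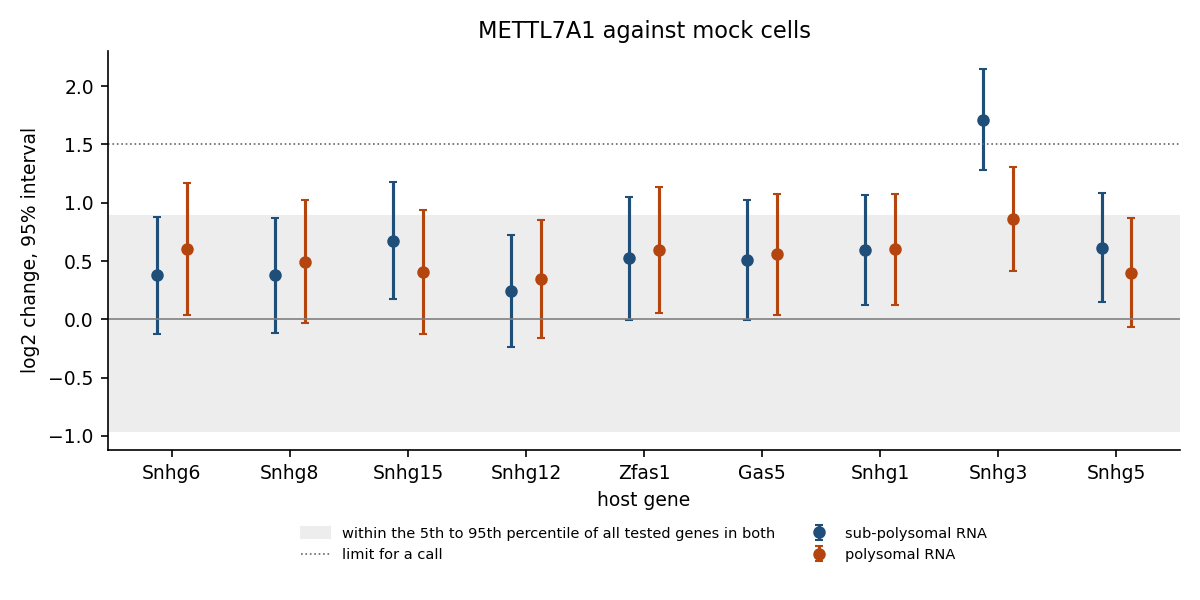
Log2 change of each host transcript between METTL7A1 and mock cells with its 95% interval, in sub-polysomal (blue) and polysomal RNA (orange); the grey band is the part of the 5th to 95th percentile range of all tested genes that both pools share and the dotted line is the log2 limit of 1.5. All points lie above 0, and the sub-polysomal point of Snhg3, at 1.71, lies above the limit.

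Beside the 9, other long non-coding hosts had medians of 0.63 in sub-polysomal and 1.09 in polysomal RNA. Of the 8 tested, 4 rose in sub-polysomal RNA, Snhg9 by 1.98 (adjusted p = 0.00165) and Snhg17 by 0.70 (adjusted p = 0.00834) among them, and none passed in polysomal RNA at an adjusted p of 0.01. Protein-coding hosts outside the ribosomal proteins had medians of -0.41 and 0.06, with 7 of 17 lower in the sub-polysomal pool. Cct6a fell there (-0.94, adjusted p = 0.000142). Ribosomal protein hosts had medians of -0.01 and -0.07, and 1 of 18, Rpl5, fell in sub-polysomal RNA (-0.64, adjusted p = 0.003). Nop10 rose in sub-polysomal RNA (0.96, adjusted p = 0.00493), 1 of 2 snoRNA-bound protein genes that did so, while 3 fell. Of the decay factors 1 rose and 2 fell there, where 10.5% of all genes rose and 7.69% fell. Of the 6 epithelial markers, Krt8 (0.82, adjusted p = 0.0011), Krt19 (0.66, adjusted p = 0.00369) and Krt18 (0.61, adjusted p = 0.00873) rose in polysomal RNA. In sub-polysomal RNA Krt8 rose (0.81, adjusted p = 0.000737) and Epcam fell (-0.71, adjusted p = 0.00709). Cd68, the 1 leukocyte gene tested, rose in polysomal RNA (1.56, adjusted p = 0.00011) and had 0.80 in sub-polysomal RNA (adjusted p = 0.0329), and Pdgfra, the 1 fibroblast gene tested, had -0.25 (adjusted p = 0.616) and -0.20 (adjusted p = 0.81). The part of cell composition in the changes of the host genes was not tested, and in bulk RNA fewer cells of a type and less RNA per cell cannot be told apart.

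Few reads came from the snoRNAs themselves. The 31 snoRNA names inside the 9 genes had 14 to 285 counts in all per library, and 26 had a count in any library. The names without a count were Gm25855, Snora44, Snora61, Snord99 and Snora9, and each shared exon bases with its host on the same strand. Snord22 (1 to 23 counts) and Snord12 (0 to 4 counts) shared such bases too. How reads on shared bases were counted is not given, so a 0 for these names does not show that the snoRNA was absent. Their summed level was 10.2, 11.9 and 14.2 CPM in mock and 63.3, 53.3 and 68.1 CPM in METTL7A1 sub-polysomal RNA. In polysomal RNA it was 1.91, 3.29 and 4.21 CPM in mock and 18.3, 8.08 and 13.5 CPM in METTL7A1 cells. In both pools the genotypes did not overlap, with METTL7A1 higher. The 1495 other genes annotated as snoRNAs also summed higher in METTL7A1 cells, at 149.7 to 224 CPM against 46.8 to 85.6 CPM in sub-polysomal RNA and 22.6 to 37.6 CPM against 8.32 to 16.9 CPM in polysomal RNA. Snora73a and Snora73b, inside Snhg3, summed to 2.82, 2.83 and 5.91 CPM in mock and 30.8, 22.3 and 30.3 CPM in METTL7A1 sub-polysomal libraries. In counts these sums were 5, 9 and 30 in mock and 93, 90 and 127 in METTL7A1 libraries. Mature snoRNAs have no poly(A) tail and are short, and how well they were recovered was not measured, so these sums describe fragments in the libraries.

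The last comparison was the shift to polysomes, the polysomal to sub-polysomal log2 change in METTL7A1 cells minus that in mock cells. None of the 9 passed an adjusted p of 0.01 in edgeR's test, as did 0.0% of all genes (0 of 12224). An unadjusted p below 0.05 was seen for 1 of 9, beside 1912 of all 12224 genes. That gene was Snhg3, at -0.85 (SE 0.29, unadjusted p = 0.00921, adjusted p = 0.177). The other 8 lay between -0.27 for Snhg15 (95% interval -1.00 to 0.47) and 0.23 for Snhg6 (-0.53 to 0.98), and each of these 8 intervals included 0. Without polysomal library A of mock cells all 9 shifts were below 0, from -1.13 for Snhg3 (adjusted p = 0.0266) to -0.12 for Snhg6 (adjusted p = 0.818), and still none passed 0.01. Without both libraries of mock A, 7 were below 0 and Snhg3 was at -1.01 (adjusted p = 0.0456). Snhg5 and Snhg15 were below 0 in each of these 3 fits, with no adjusted p below 0.147, and the sign of Gas5, Snhg1, Snhg6, Snhg8, Snhg12 and Zfas1 changed between them.

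**Figure D5:**
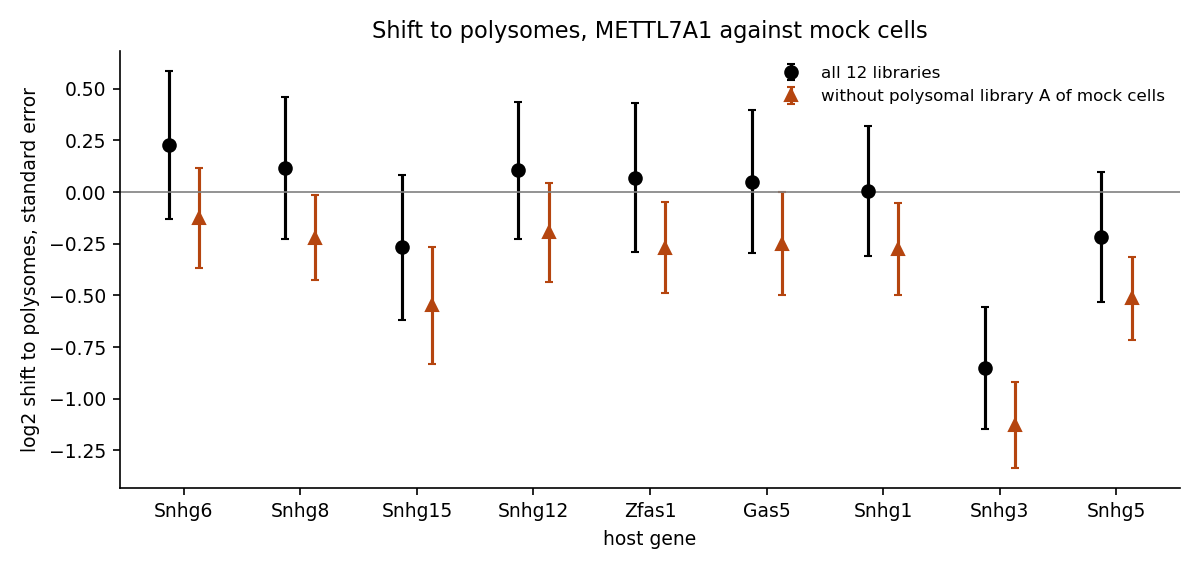
Log2 shift to polysomes in METTL7A1 against mock cells for each host transcript, with bars of 1 standard error, from all 12 libraries (black circles) and without polysomal library A of mock cells (orange triangles). With all libraries 6 of 9 points lie above 0, and without that library all 9 lie below 0, Snhg3 lowest at -0.85 and -1.13.

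Across the 12 libraries the 9 transcripts followed one another closely. Pearson's r of log2 CPM between each gene and the mean of the other 8 was 0.99 or more for Gas5, Snhg1, Snhg6, Snhg8, Snhg12, Snhg15 and Zfas1, 0.967 for Snhg5 and 0.922 for Snhg3. Among 9446 other genes with a mean of at least 5 CPM, those most like the mean of the 9 were BC029722 (r = 0.998), 1110038B12Rik (0.998), 2410006H16Rik (0.997), Mrpl42 (0.997) and Tmem242 (0.996). All 5 were lower in polysomal RNA, with log2 changes of -3.30 for 2410006H16Rik to -2.44 for Mrpl42 in mock cells. These correlations describe 12 libraries in 2 pools, and most of the variance lay between the pools.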

How the data were processed

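The 12 libraries were grouped by the labels into mock and METTL7A1 cells and sub-polysomal and polysomal RNA. Per the study's methods and the submitters' processing notes, reads were aligned to mm10 with STAR 2.5.3a, and the deposited counts per gene were made by the authors with featureCounts (R 3.5.1) on the Ensembl GRCm38 annotation, and bcl2fastq 2.20.0.422 was also named. The deposited table also gives gene length, as merged exon bases, used for CPM per kb. Strand and multi-mapping settings are not given in the sources used here.

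Genes that reached 1 CPM in 3 or more libraries entered the test, and edgeR 4.0.16 (R 4.3.3) was fitted on all 12 libraries with TMM factors, 1 mean per group and the quasi-likelihood test. P-values were Benjamini-Hochberg adjusted over all genes, with the adjusted p threshold of 0.01 and log2 limit of 1.5 that the study gives. Alternatives were DESeq2 1.42.0, other scalings, GC offsets, other filters, a replicate block and leaving out libraries. Leaving out both mock A libraries and grouping genes by annotated type were added after seeing the data. The scripts were tested on simulated data. Counting error alone was small for the 9 genes, which had at least 53 counts in every library.

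The members, gene lists and tests were chosen with earlier results of these data known. The text names the 9 members, Mettl7a1, the highest and lowest gene of each list, the 5 most alike genes, genes sharing exons and, chosen after their values were seen, the cell markers that passed.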

Additional observations from a re-analysis of the deposited data

How the results depend on the processing

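The polysomal to sub-polysomal results kept direction and counts within 1.5 times under every alternative run. Between genotypes, the polysomal count past an adjusted p of 0.01 was 1 and became 0 with scaling to Actb, at least 10 counts in every library, only the groups compared, and both mock A libraries left out (range 0 to 1 when 1 library was left out). At an adjusted p below 0.05 with no fold limit 1 was called there instead of 0. The sub-polysomal count was 1 and became 2 with Actb scaling, 2 with GC offsets, 2 without both mock A libraries, 4 with no filter and 3 at an adjusted p below 0.05, which also called 3 (range 1 to 5 when 1 library was left out). Shifts to polysomes changed sign, none past the threshold. With Actb scaling they were -0.14 for Gas5, -0.18 for Snhg1, -0.0705 for Snhg8, -0.0912 for Snhg12 and -0.12 for Zfas1, when the median of all genes was -0.17. With GC offsets they were -0.14, -0.18, -0.0679, -0.0304 and -0.0585 for the same genes. Snhg1 was at -0.0165 with no filter and -0.011 with the stricter one. Without both mock A libraries, Gas5 was at -0.0169, Snhg1 at -0.098, Snhg8 at -0.15 and Zfas1 at -0.11. With 1 library left out in turn the range was -0.25 to 0.28 for Gas5, -0.27 to 0.18 for Snhg1, -0.12 to 0.55 for Snhg6, -0.22 to 0.36 for Snhg8, -0.20 to 0.37 for Snhg12 and -0.27 to 0.37 for Zfas1, the lowest without mock polysomal A. Causes were not tested. Scaling to Actb moved the median of all genes to 0.26 in the sub-polysomal comparison, where the 9 lay 0.53 above it.

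No source used here says whether a letter marks pools of the same gradient. Deviations of same-lettered libraries from their group means correlated at -0.29 to 0.11, so the main fit had no block. The 9 genes were, however, below the mean of B and C in library A of both mock pools. With the letter as a replicate block, 9 of 9 passed and 8 were called in each genotype, and 0 of 9 shifts passed. The block could not be fitted between genotypes, which share no letter.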
